A study of Mus musculus with 15 samples.

Results

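The Hedgehog pathway genes GLI1, GLI2, GLI3, PTCH1, SMO, SUFU, HHIP, SHH and IHH were followed across 5 mouse myeloma cell lines. They are 9 of the 32434 entries of the deposited table, taken by name, and are written below with their mouse symbols. The set was chosen by measured values, namely the high levels of Gli1 and Gli3 in the line IL6Myc-4 in these same libraries. The levels of the 9 genes in that line are therefore given as a description with no test, and tests of the 9 genes were made only among the other 4 lines. RNA was sequenced from IL6Myc-4, IL6Myc-1, IL6Myc-2, IL6Myc-3 and IL6Myc-5, all of the IL6Myc genotype. The lines come from IL6Myc mice, which keep an intact immune system and develop multiple myeloma, a plasma cell cancer. No treatment, age or allele beyond that genotype is given in the labels, and no untransformed plasma cells were part of the panel. Each line was a single biological unit with 3 technical replicate libraries, so p-values measure only the spread between technical libraries.

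Hedgehog ligands such as Shh and Ihh are secreted proteins that bind the membrane receptor Ptch1. Unbound Ptch1 holds the membrane protein Smo inactive; ligand binding frees Smo, which acts at the primary cilium and lifts the hold of Sufu on the Gli transcription factors. Gli1 and Ptch1 are themselves textbook targets of this signalling, so that their RNA is widely used as its readout, and in multiple myeloma the pathway has been studied both in the tumour cells and in the marrow stroma around them.

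The RNA of the 9 genes separated into 3 kinds of pattern. Gli1, Gli3 and Ptch1 were high in IL6Myc-4, with Gli1 at 958 CPM. This unit gives counts after all libraries have been set to one depth. Gli2 was above 1 CPM in IL6Myc-5 alone. Sufu lay between 20.8 and 27.6 CPM in every line, while Smo, Hhip, Shh and Ihh stayed under 1 CPM in all 15 libraries.

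The bases before the start sites of Ptch1, Gli3 and Gli2 are shown because these are the members whose RNA stood apart in 1 line and for which RefSeq gave a promoter window. They come from RefSeq promoter windows of build GRCm38.p6, whereas the deposited values were made on GRCm39, and each run of 250 bases ends at the base before the start site. Capitals mark the GC box GGGCGG, the short motif bound by Sp1-type zinc fingers, on either strand. The Ptch1 run lies at chr13:63565736-63565985 on the minus strand, the Gli3 run at chr13:15463473-15463722 on the plus strand and the Gli2 run at chr1:119053620-119053869 on the minus strand.
Ptch1: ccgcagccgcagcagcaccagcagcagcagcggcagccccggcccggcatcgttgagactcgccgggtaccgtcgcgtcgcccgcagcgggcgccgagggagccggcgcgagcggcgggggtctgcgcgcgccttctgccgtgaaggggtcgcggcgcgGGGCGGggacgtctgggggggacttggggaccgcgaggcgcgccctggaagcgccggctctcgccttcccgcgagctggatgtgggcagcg
Gli3: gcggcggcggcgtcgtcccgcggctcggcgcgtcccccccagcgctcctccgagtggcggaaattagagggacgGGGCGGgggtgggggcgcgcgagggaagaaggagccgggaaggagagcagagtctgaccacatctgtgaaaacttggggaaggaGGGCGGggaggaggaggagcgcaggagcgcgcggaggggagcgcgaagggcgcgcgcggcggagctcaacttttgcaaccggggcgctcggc
Gli2: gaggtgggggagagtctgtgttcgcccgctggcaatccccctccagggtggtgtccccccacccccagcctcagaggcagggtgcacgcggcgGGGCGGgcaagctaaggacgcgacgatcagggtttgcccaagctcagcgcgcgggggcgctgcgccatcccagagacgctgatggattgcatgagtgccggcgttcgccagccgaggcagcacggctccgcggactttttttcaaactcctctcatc
All 3 runs were rich in G and C, at 78.4% for Ptch1, 72.8% for Gli3 and 67.2% for Gli2, and held 41, 34 and 22 CpG dinucleotides in that order. Windows of 300 bases, with 250 before and 50 after the start site, were found for 7 of the 9 genes, and Gli1 and Shh are named only. A GC box occurred in 6 of those 7 windows, that of Smo being without one, and in 35.7% of all 32851 windows. The 7 windows held 56.3% to 76.3% G and C, beside a median of 52.7% over all windows. The part of base composition in the GC box counts was not tested. The consensus sequence of Gli proteins, GACCACCCA, was searched on both strands. None of the 7 windows held it with up to 1 mismatch, against 6.74% of all windows, and the exact letters stood in 0.253% of all windows. These matches only describe the letters of the windows.

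Among the secreted ligands and the decoy receptor of the set, no gene reached 1 CPM. Shh, the ligand that patterns the neural tube and limb, had 0 counts in all 15 libraries, where 3 counts over the libraries of a line would stand at 0.0376 CPM in IL6Myc-4, 0.0332 CPM in IL6Myc-1 and at most 0.0527 CPM in any line. Ihh, the ligand of cartilage growth, had 11 counts in IL6Myc-4, against 16 in IL6Myc-1, 1 in IL6Myc-2, 19 in IL6Myc-3 and 10 in IL6Myc-5. The means of Ihh were 0.137 ± 0.0528 CPM in IL6Myc-4 and between 0.0159 and 0.224 CPM in the other lines (SD, n = 3), so that IL6Myc-4 lay inside the range of the others. Hhip, a membrane protein that binds Hedgehog ligands and withholds them, had 1 count in IL6Myc-1 and 0 in the other 4 lines. None of the 3 genes passed the filter of 1 CPM in 3 libraries, and none was tested. Limits drawn from counts cover counting error only.

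The receptor Ptch1 was high in IL6Myc-4 and detected in every line. It had 468, 470 and 449 CPM in the 3 libraries of IL6Myc-4. It had 53.3, 51.4 and 55.1 CPM in those of IL6Myc-1, and 53.1, 51.7 and 54.3 CPM in those of IL6Myc-3. The libraries of IL6Myc-5 had 48.5, 48.5 and 43.6 CPM, and those of IL6Myc-2 had 44.5, 40.8 and 39.8 CPM. All 3 libraries of IL6Myc-4 thus lay above all 12 others, the highest of which was 55.1 CPM. The mean of 462 ± 11.9 CPM in IL6Myc-4 was 8.68-fold the 53.3 ± 1.86 CPM of IL6Myc-1, the next line, with a 95% interval of 8.44 to 8.97 that covers counting error only. In bulk RNA, fewer expressing cells and less RNA per cell cannot be told apart, here or in any level that follows.

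**Figure D1:**
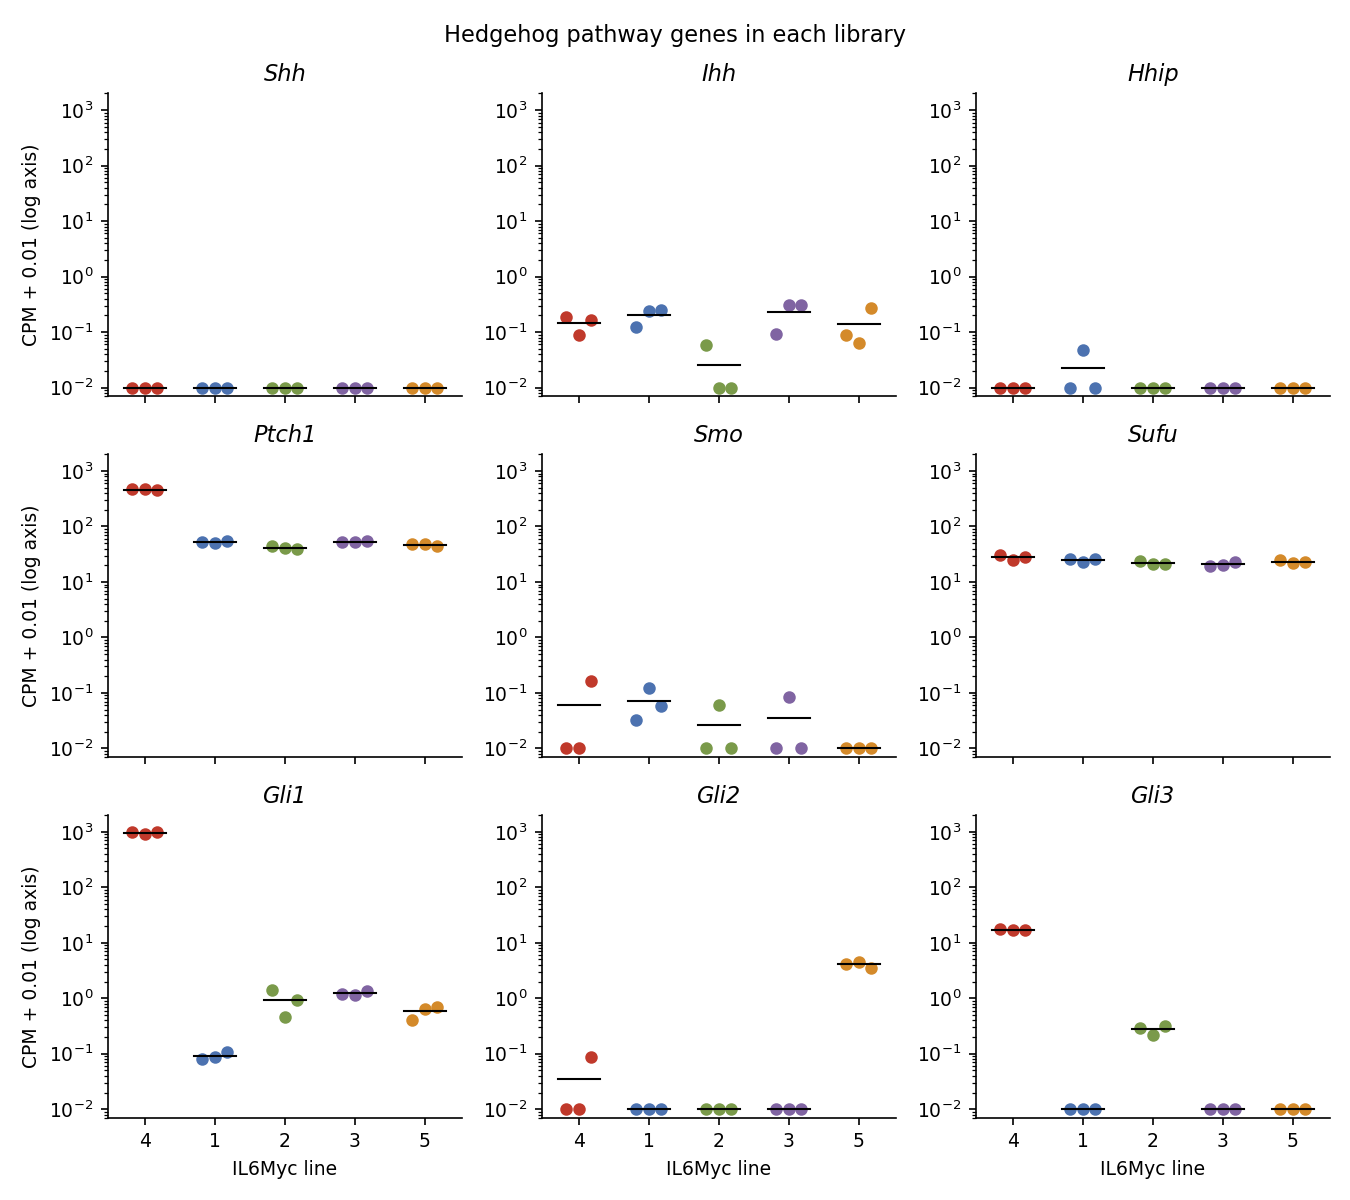
CPM plus 0.01 on a log axis for the 9 Hedgehog pathway genes in each library, by line, with dots for the 3 technical replicates and a bar at their mean. Gli1, Gli3 and Ptch1 were high in IL6Myc-4, Gli2 in IL6Myc-5, and the Sufu libraries overlapped between lines, while Shh had 0 counts in all 15 libraries.

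Smo, the protein that carries the signal inward from Ptch1, was close to 0 in every line. It had 4 counts in IL6Myc-4, all in replicate 3, against 5 in IL6Myc-1, 1 in IL6Myc-2, 2 in IL6Myc-3 and 0 in IL6Myc-5, and no library exceeded 0.154 CPM. The line with the high Gli1 and Ptch1 levels therefore did not stand apart in Smo RNA at this depth. Sufu, which binds Gli proteins and keeps them from the nucleus, was detected in every library. It had 30.1, 24.8 and 27.96 CPM in the libraries of IL6Myc-4, and the 12 other libraries lay at 26.3 CPM or less, with line means of 20.8 to 25.1 CPM. The lowest library of IL6Myc-4 was below the highest of the others, so the groups overlapped, and the mean in IL6Myc-4 was 1.10-fold that of IL6Myc-1 (95% interval 1.04 to 1.17, counting error only).

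Of the Gli transcription factors, Gli1, an activator, was high in IL6Myc-4 and low in all the others. The libraries of IL6Myc-4 had 987, 895 and 994 CPM. The libraries of IL6Myc-3 had 1.18, 1.11 and 1.33 CPM, and those of IL6Myc-2 had 1.39, 0.458 and 0.920 CPM. Those of IL6Myc-5 had 0.398, 0.637 and 0.683 CPM, and those of IL6Myc-1 had 0.0693, 0.0765 and 0.0961 CPM. The mean of 958 ± 55.3 CPM in IL6Myc-4 was 793-fold the 1.21 ± 0.112 CPM of IL6Myc-3, with an interval of 649 to 970 from counting error alone, and no library of another line came above 1.39 CPM. Arhgap9, a gene on the opposite strand that overlaps Gli1 in the GENCODE M21 annotation, had 26.9 ± 0.377 CPM in IL6Myc-4 and between 21.3 and 29.9 CPM in the other lines. Gli3 and Ptch1 each overlap a gene on their own strand in that annotation, Gm48343 and A930032L01Rik, which were not analysed here, and reads from shared bases cannot be told apart. The counting strand is not given in the sources used here.

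Gli3, which acts mainly as a repressor of Hedgehog targets in its processed form, was present in a pair of lines. It had 17.7, 16.9 and 16.8 CPM in IL6Myc-4, against 0.287, 0.203 and 0.307 CPM in the libraries of IL6Myc-2. It had 0 counts in IL6Myc-1, IL6Myc-3 and IL6Myc-5. The mean in IL6Myc-4 was 64.5-fold that of IL6Myc-2 (95% interval 39.3 to 117, counting error only) and at least 401-fold higher than in the 3 lines without counts, taking 3 counts over a line as the floor.

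Gli2, the main activator downstream of Smo in most mouse tissues, had a pattern of its own. It had 4.18, 4.41 and 3.57 CPM in the libraries of IL6Myc-5, from 105, 83 and 94 counts. IL6Myc-4 had 2 counts, both in replicate 3, and IL6Myc-1, IL6Myc-2 and IL6Myc-3 had 0. IL6Myc-5 was 158-fold above IL6Myc-4 with a counting interval of 43.9 to 1329, and at least 76.8-fold higher than the 3 lines without counts. The line highest in Gli1 and Gli3 was therefore not the line that held Gli2.

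Genes outside the 9 are ranked or summed below in CPM that is not set to length. Levels of the 9 genes were compared with each other per length, as CPM per kilobase of the longest coding transcript. On that scale IL6Myc-4 had Gli1 at 236, Ptch1 at 59.9, Sufu at 6.11 and Gli3 at 2.10, in that order. In the other 4 lines Ptch1 was the highest of the 9 genes, at 5.40 to 6.90, followed by Sufu at 4.60 to 5.54, with Gli1 at no more than 0.298. Gli2 in IL6Myc-5 stood at 0.610 on this scale. Without setting to length, the summed CPM of Gli1, Gli2 and Gli3 was 976 in IL6Myc-4, against 4.62 in IL6Myc-5, 1.21 in IL6Myc-3, 1.19 in IL6Myc-2 and 0.0806 in IL6Myc-1. This sum was mostly Gli1 in IL6Myc-4 and mostly Gli2 in IL6Myc-5.

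Differences among IL6Myc-1, IL6Myc-2, IL6Myc-3 and IL6Myc-5 were tested, since these levels had not chosen the set. Calls needed a log2 difference of at least 1 and an adjusted p (edgeR quasi-likelihood test, Benjamini-Hochberg) under 0.05. Of the 9 genes, 5 passed the filter on low counts: Ptch1 and Sufu through all 15 libraries, Gli1 through 7, Gli2 only through IL6Myc-5 and Gli3 only through IL6Myc-4. Gli2, having passed only through the line where it was high, had to differ. Over the 4 lines, Gli1 (adjusted p = 1.58e-06), Gli2 (adjusted p = 9.40e-08) and Gli3 (adjusted p = 3.19e-05) were called by the edgeR F-test, and 28.1% of all 11773 genes tested were. Because Gli2 and Gli3 had entered the test through their high line, no weight is put on the number of members called.

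Gli1 was lowest in IL6Myc-1, where it had 7 counts over 3 libraries. The log2 difference was -3.50 ± 0.47 for IL6Myc-1 against IL6Myc-2, -3.89 ± 0.41 for IL6Myc-1 against IL6Myc-3 and -2.80 ± 0.51 for IL6Myc-1 against IL6Myc-5 (± SE; edgeR adjusted p = 4.91e-06, 5.52e-07 and 0.000149). IL6Myc-3 was 1.09 ± 0.28 above IL6Myc-5 on the log2 scale (edgeR adjusted p = 0.00368), and 0.87 without IL6Myc-5 replicate 1, short of the size threshold. With limma on log2(CPM + 1), IL6Myc-1 against IL6Myc-3 was the single called pair of Gli1, at -1.03, and the others were at most 0.80 in size. IL6Myc-2, whose libraries spread from 0.458 to 1.39 CPM, did not differ beyond that spread from its neighbours in the order of levels, with -0.38 ± 0.26 against IL6Myc-3 and 0.71 ± 0.32 against IL6Myc-5 (edgeR adjusted p = 0.219 and 0.0744). By mean level, the order of Gli1 was IL6Myc-4, then IL6Myc-3, IL6Myc-2 and IL6Myc-5, and last IL6Myc-1. The place of IL6Myc-2 between IL6Myc-3 and IL6Myc-5 was not told apart by the main tests, and this depended on the setting. Without IL6Myc-2 replicate 2, IL6Myc-2 was called above IL6Myc-5, at 1.05 (edgeR adjusted p = 0.00367). Without IL6Myc-2 replicate 1, IL6Myc-2 against IL6Myc-3 was -0.86 (edgeR adjusted p = 0.0146), short of the size threshold. With DESeq2, IL6Myc-2 against IL6Myc-5 was 0.72 (DESeq2 adjusted p = 0.0361), also short of it.

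Ptch1 did not follow that order. Its highest level among the 4 lines was in IL6Myc-1, the line lowest in Gli1, and the spread over the 4 lines was 0.35 on the log2 scale (edgeR adjusted p = 2.36e-05, under the size threshold). IL6Myc-1 and IL6Myc-3 differed by 0.01 ± 0.05 (adjusted p = 0.935), and the other 5 pairs differed past the p threshold by at most 0.35 ± 0.05. Sufu spanned 0.27 on the log2 scale (edgeR adjusted p = 0.0520), and IL6Myc-1 against IL6Myc-3 was its single pair past the p threshold, with 0.27 ± 0.09 (adjusted p = 0.0162). Gli3 was higher in IL6Myc-2 than in the 3 lines without counts, by at least 6.22-fold (largest edgeR adjusted p over the 3 pairs 0.000165), on 15 counts, and with limma on log2(CPM + 1) its range over the 4 lines was 0.34, short of the size threshold.

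**Figure D2:**
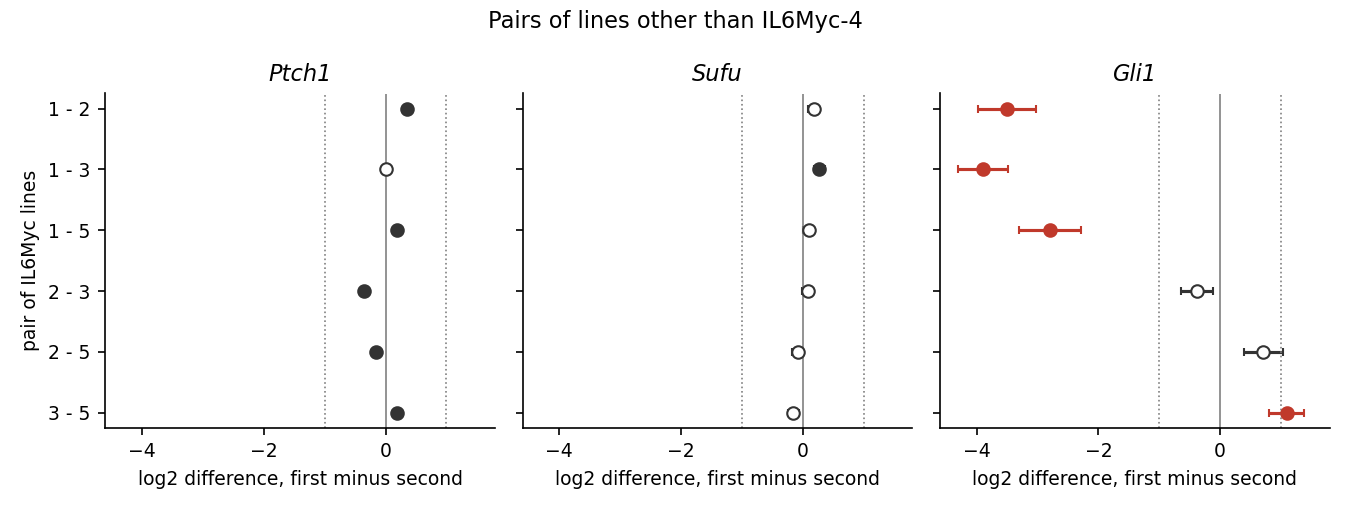
Log2 difference, first line minus second, with its SE, for the 6 pairs of lines other than IL6Myc-4; filled dots are past an adjusted p of 0.05, red ones also past a log2 difference of 1, shown by dotted lines. The Gli1 differences reach -3.89, whereas no Ptch1 difference exceeds 0.35 and no Sufu difference exceeds 0.27 in size.

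Over the 5 tested members and 6 pairs, 30 differences were computed, of which 10 were called and 16 were past the p threshold at any size. The calls were 4 for Gli1, 3 for Gli2 and 3 for Gli3, against 1, 3 and 0 with limma on log2(CPM + 1). Gli2 passed the filter only through IL6Myc-5, so its call in each pair with IL6Myc-5 was fixed in advance. Gli3 was tested only through its level in IL6Myc-4, which chose the set. The counts by pair include these calls and carry no weight. By pair, 2 members were called between IL6Myc-1 and IL6Myc-2, where 19% of all genes were, and 1 between IL6Myc-1 and IL6Myc-3, where 11.4% were. Between IL6Myc-1 and IL6Myc-5 there were 2 (14.6% of all genes), between IL6Myc-2 and IL6Myc-3 there was 1 (14%), between IL6Myc-2 and IL6Myc-5 there were 2 (12.2%), and between IL6Myc-3 and IL6Myc-5 there were 2 (9.86%). With so few members tested, these shares describe the pairs and show nothing particular to the pathway.

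The rest of the pathway did not rise together in IL6Myc-4. Of 82 further genes of the pathway, 46 passed the filter; 4 were called higher in IL6Myc-4 than in the mean of the other 4 lines and 2 lower, where 5.28% and 4.37% of all genes tested were called. The median log2 difference of the 46 genes was 0.03, beside 0 over all genes. Over all 5 lines, 22 of the 46 were called by the edgeR F-test, or 47.8%, beside 32.1% of all genes.

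Of 14 genes of ligand release and reception, 4 were tested. Disp1, the transporter that releases lipid-bearing ligand from the cell that makes it, had 4.72, 4.76 and 4.80 CPM in IL6Myc-4 against a mean of 19.03 ± 2.35 CPM for IL6Myc-1, 16.1 ± 2.08 CPM for IL6Myc-2, 11.1 ± 1.69 CPM for IL6Myc-3 and 7.10 ± 1.43 CPM for IL6Myc-5 (SD, n = 3 each). All 3 libraries of IL6Myc-4 lay below the 12 others, and Disp1 fell by 1.39 ± 0.13 on the log2 scale (edgeR adjusted p = 1.13e-07). Adam17, a sheddase, was not called at 104 CPM in IL6Myc-4 (log2 difference 0.12 ± 0.05), nor were Hhat, which attaches palmitate to the ligand, at -0.82 ± 0.31 and the co-receptor Cdon at 0.86 ± 0.46. The co-receptor Gas1 had 0 counts in all lines, and the co-receptor Boc had 1.

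Of 32 genes of signal relay and the cilium, 28 were tested and 27 were not called. Kif3a, a motor subunit needed to build the cilium, had 4.93 CPM in IL6Myc-4 and between 8.23 and 12.3 CPM in the other lines, and fell by 1.06 ± 0.07 on the log2 scale (edgeR adjusted p = 2.52e-09). With limma on log2(CPM + 1) its difference was -0.93, short of the size threshold. The kinases Grk2 and Csnk1a1 and the ubiquitin ligase scaffold Cul3 were the highest genes not called, with log2 differences of -0.27 ± 0.05, -0.19 ± 0.04 and 0.05 ± 0.04. Over the 5 lines, 9 of the 28 were called, or 32.1%, the same share as over all genes (32.1%), so the count says nothing particular to the list. Those at 5 CPM or more were Prkacb, a catalytic subunit of protein kinase A, with a log2 range of 1.64, the ciliary adaptor Tulp3 with 1.33, Kif3a with 1.32, the transport subunit Ift88 with 1.25, the kinesin Kif7 with 1.15 and the small GTPase Rab23 with 1.03.

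Of 28 genes described as Gli targets in one tissue or another, 13 were tested and 3 were called higher in IL6Myc-4, all at low levels. None was called lower. Over all genes tested, 5.28% were called higher and 4.37% lower. Bmp4, a secreted growth factor, had 3.43, 2.52 and 4.07 CPM in IL6Myc-4, against means of 1.40 in IL6Myc-5, 0.886 in IL6Myc-3, 0.0738 in IL6Myc-2 and 0.358 CPM in IL6Myc-1, and rose by 2.94 ± 0.22 on the log2 scale (edgeR adjusted p = 6.68e-09). Spp1, the secreted matrix protein osteopontin, had 4.08, 3.14 and 3.19 CPM in IL6Myc-4, against 1.21 CPM or less in the means of the other lines, and rose by 2.71 ± 0.21 (edgeR adjusted p = 1.40e-08). Jag2, a Notch ligand, had 4.72, 1.97 and 4.07 CPM in IL6Myc-4 and a mean of 3.24 CPM in IL6Myc-2, so the libraries overlapped; its difference of 1.10 ± 0.22 (edgeR adjusted p = 0.000537) was 0.85 without IL6Myc-4 replicate 1 and then no longer reached the size threshold, and 0.66 with limma on log2(CPM + 1). These 3 genes and Glis2, below, lie under the 5 CPM that the naming of genes asked for and were named after their values were seen.

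The abundant genes of that list did not share the pattern of Gli1. Ccnd2, a cell cycle cyclin, was at 1141 CPM in IL6Myc-4 (log2 difference -0.13 ± 0.03), the adhesion receptor Cd44 at 520 CPM (-0.32 ± 0.03) and the polycomb gene Bmi1 at 393 CPM (0.50 ± 0.05). Bcl2, a survival factor, was at 14.4 CPM in IL6Myc-4, with -0.49 ± 0.06. Foxf1, Foxa2 and Nkx6-1, developmental factors, had 0 counts in all libraries. Over the 5 lines 10 of the 13 tested genes were called, or 76.9%, beside 32.1% of all genes tested. Among them were Bcl2 with a log2 range of 1.37, Snai2 with 1.32, Ccnd2 with 1.12, Ccne1 with 1.04 and Cd44 with 1.04. Of 8 zinc finger genes related to Gli, Glis2 alone was tested, at 1.62 CPM in IL6Myc-4 and 1.58 CPM in IL6Myc-2, with a log2 difference of 1.17 ± 0.21 from the mean of the other 4 lines (edgeR adjusted p = 0.000163), which was 0.51 with limma on log2(CPM + 1).

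**Figure D3:**
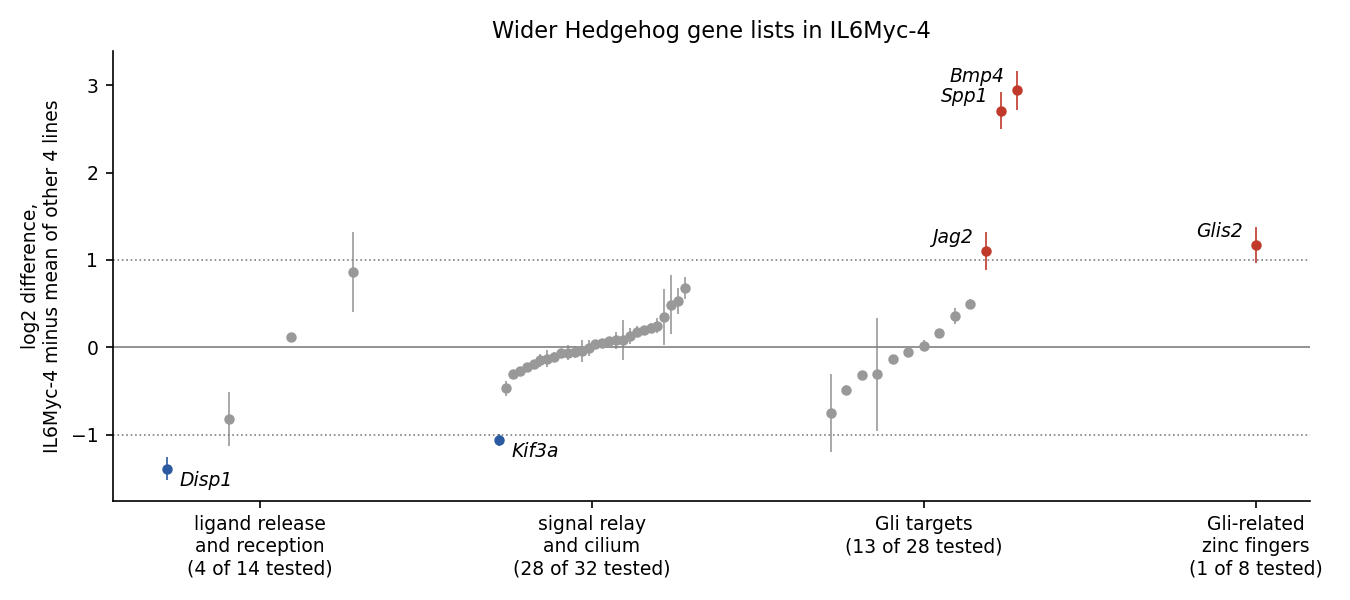
Log2 difference of IL6Myc-4 minus the mean of the other 4 lines, with its SE, for the tested genes of 4 further lists of Hedgehog genes; red genes were called higher and blue ones lower, dotted lines mark a log2 difference of 1. Bmp4 and Spp1 stood at 2.94 and 2.71, and most genes of the relay and cilium list lay near 0.

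The chromosomal neighbours of Gli1 and Gli3 did not share their levels in IL6Myc-4. Gene order was taken from RefSeq on GRCm38.p6, with 10 protein-coding genes on each side. Beside Gli1, 15 of 20 neighbours were tested, 1 was called higher and 2 lower (5.28% and 4.37% over all genes), and their median log2 difference was -0.02. The nearest genes, Arhgap9 and Mars1 on one side, had 0.03 ± 0.06 and -0.06 ± 0.04; on the other side Inhbe had -0.65 ± 0.15 and Inhbc had 1 count in all. Lrp1, an endocytic receptor, rose by 1.10 ± 0.27 (edgeR adjusted p = 0.00253; 0.87 and not called with limma on log2(CPM + 1)), while Ddit3, a stress-response factor, fell by 1.33 ± 0.07 (adjusted p = 1.09e-10) and Nxph4, a secreted neurexophilin, fell by 2.40 ± 0.30 (adjusted p = 3.31e-06).

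Beside Gli3, 15 of 20 neighbours were tested, with a median log2 difference of 0.05, and 2 were called higher and none lower (5.28% and 4.37% over all genes). AW209491 and Psma2, nearest on one side, had 0.12 ± 0.05 and 0.01 ± 0.03, and Inhba and Sugct on the other did not pass the filter. Lyst, a lysosome trafficking gene, had 6.04, 12.97 and 41.02 CPM in IL6Myc-4; its difference of 1.39 ± 0.40 (edgeR adjusted p = 0.00731) rests on replicate 3 and was 0.32 without it (adjusted p = 0.518), and 0.96 with limma on log2(CPM + 1) (adjusted p = 0.0527).

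**Figure D4:**
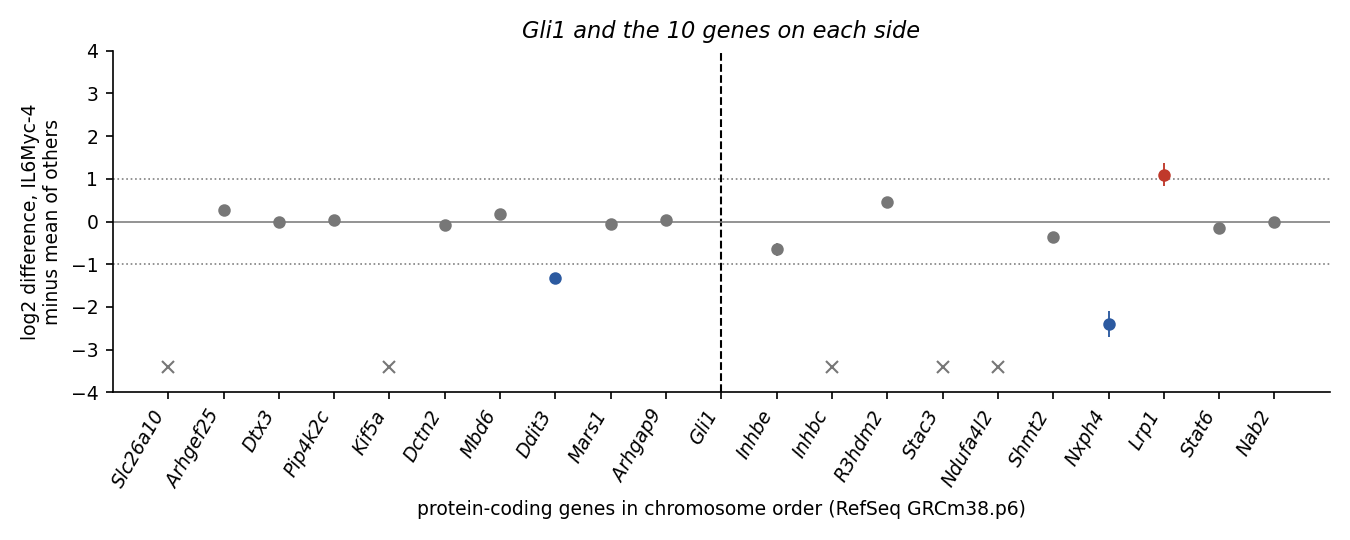
Log2 difference of IL6Myc-4 minus the mean of the other 4 lines, with its SE, for the 10 protein-coding genes on each side of Gli1 in chromosome order; the dashed line marks Gli1, crosses mark genes that did not pass the filter, and dotted lines a log2 difference of 1. The median difference is -0.02, with Lrp1 called higher and Ddit3 and Nxph4 lower.

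The genes with the pattern most like that of Gli1 were found by Pearson's r of log2(CPM + 1) over the 15 libraries, among 9677 genes with at least 5 CPM in their highest line. With 5 lines of 3 technical libraries this r is a description that rests on 5 units, and any gene high in IL6Myc-4 and low in the others scores high. The 10 closest were Mmrn1 (r = 0.998), Cxcr3 (0.997), Agt (0.996), Gli3 (0.994), Abca4 (0.994), Cyyr1 (0.994), Pcsk5 (0.993), Slc66a2 (0.988), Mfsd12 (0.987) and Kif13b (0.987), and Ptch1 came 11th with 0.987. This list depends on the measure: none of the 10 was among the 10 closest under Spearman's rho, and 5 were on log2(CPM + 0.1). The set was chosen by the high levels of Gli1 and Gli3 in IL6Myc-4, so the place of Gli3 follows from that choice and carries no weight. Cxcr3, a chemokine receptor, had 134 ± 0.975 CPM in IL6Myc-4 and at most 0.721 CPM in another line. Slc66a2, Mfsd12 and Kif13b had smaller differences, at 2.85, 2.86 and 4.38 times the next line, with 9.29 to 11.2 CPM of Slc66a2 in the other lines.

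**Figure D5:**
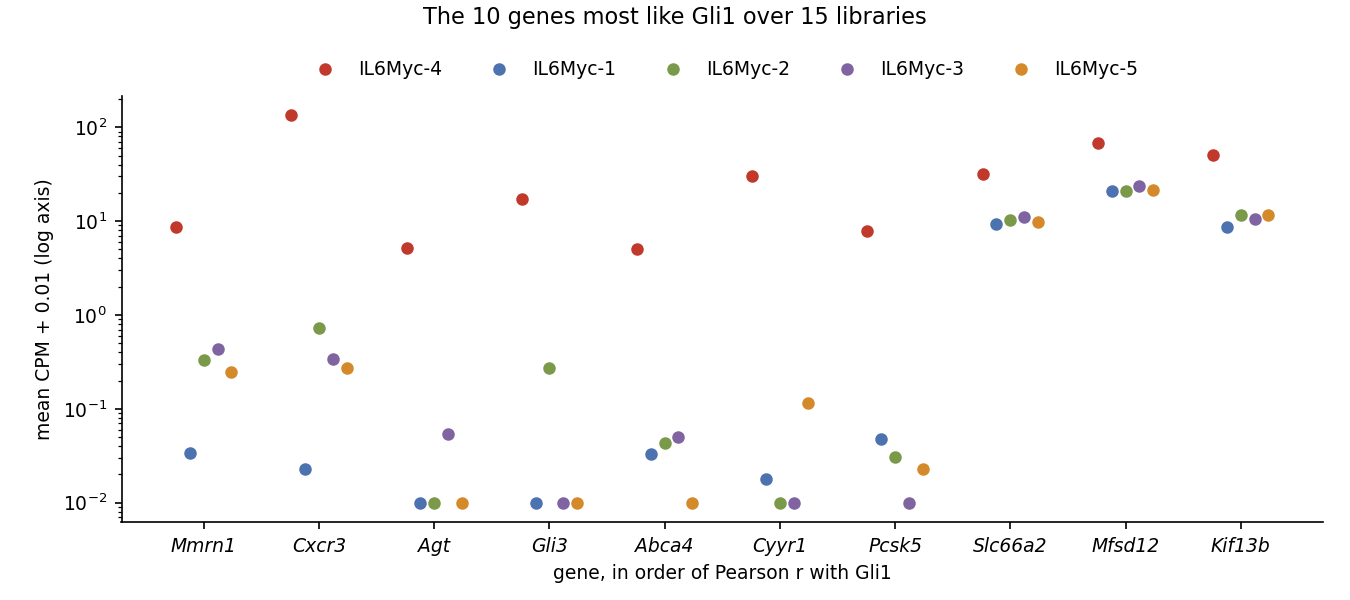
Mean CPM plus 0.01 on a log axis, by line, for the 10 genes whose level over 15 libraries followed that of Gli1 most closely. In all 10, IL6Myc-4 is the highest line, at 134 CPM for Cxcr3 and 17.1 CPM for Gli3.

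The libraries held 19068543 to 41165599 estimated counts each. Markers of the labelled plasma cell identity were present in every line, with the 8 genes of the list summing to 46680 CPM in IL6Myc-4 and 46590 to 108800 CPM in the others. The sums of myeloid and of T and NK cell markers were highest in IL6Myc-4, but not every gene in them was. The 8 myeloid genes summed to 690 CPM, against 142 to 308 CPM in the other lines, and the 8 T and NK cell genes to 43.2 CPM, against 3.76 to 21.3 CPM. Of the myeloid sum, 490 CPM was C1qb and 186 CPM Cd68, while Lyz2 and Adgre1 had 0 counts in IL6Myc-4 and Csf1r and Cd14 were at 0.0129 and 0.0257 CPM. Cd68, Fcgr4 and Itgam were higher in IL6Myc-2, at 201.5, 27.6 and 11.6 CPM, than in IL6Myc-4, at 186, 10.9 and 2.98 CPM. Of the T and NK cell sum, 22.0 CPM was Cd3g and 14.8 CPM Prf1, while Gzmb and Ncr1 had 0 counts and Cd3e was at 0.0119 CPM. Cd3d was higher in IL6Myc-2, at 7.61 CPM, than in IL6Myc-4, at 3.42 CPM. The 8 stromal genes, whose cells are a known site of Gli1, summed to 1.02 CPM in IL6Myc-4 and 0.406 to 1.42 CPM in the others, with Cxcl12 at 0 in all lines and Col1a1 at 0.178 CPM in IL6Myc-4. The 6 endothelial genes summed to 25.4 CPM in IL6Myc-4 and 14.6 to 26.6 CPM in the others, nearly all of it Pecam1, with Cdh5, Kdr and Emcn at 0. The part of these marker sums in the levels of Gli1, Gli3 and Ptch1 was not tested.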

How the data were processed

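The data are total RNA-seq of 15 libraries, 3 technical replicates for each of 5 lines. The labels' protocols name the RNeasy mini kit for extraction and TruSeq Stranded Total RNA for the libraries. The submitters' processing notes name Trim Galore 0.4.0, DESeq2 and GRCm39. Which aligner, quantifier and counting strand were used is not given in the sources used here. Although the deposited table is named for TPM, its columns sum to 19068543 to 41165599 and 30.8% to 54.3% of each column's values above 0 and under 1.5 lie within 0.02 of 1, so the deposited values were taken as estimated counts made by the authors, rounded and tested as such; a quantifier's length correction would carry into the levels.

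The table holds 32434 entries, of which 98.7% matched a RefSeq symbol. Genes with at least 1 CPM in 3 libraries (11773) were fitted in edgeR 4.0.16 under R 4.3.3, with TMM factors of 0.848 to 1.08, the line as the factor and all 15 libraries. Adjusted p-values are Benjamini-Hochberg over all genes tested. No libraries of a line were identical, and their chi-square over genes, divided by its degrees of freedom, ran from 4.33 to 18.4, above sampling noise. Replicate numbers did not pair libraries: correlations of same-numbered libraries ran from -0.0841 to 0.11. Alternatives were DESeq2 1.42.0, its size factors in edgeR, limma 3.58.1 on log2(CPM + 1), other filters, a replicate block and leaving out each library; a fit without the IL6Myc-4 libraries was added after seeing the data.

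The 9 genes and the further lists were chosen with earlier results of these data known. Genes named from the lists were called ones, at most 6 per list and direction by size with 5 CPM or more in the higher line, and up to 3 of the highest that were not called; beside Gli1 and Gli3, the 2 nearest on each side and every called one; and the 10 most like Gli1. Some genes that this takes in are not reported here. Promoter windows and the gene order are RefSeq's on GRCm38.p6, so no other coordinates are given.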

Additional observations from a re-analysis of the deposited data

How the results depend on the processing

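Smo and Ihh, with under 20 counts in a line, were tested only with no filter, where 2 pairs of Ihh were called and none of Smo. Of the settings other than leaving out a library, 30 of 52 comparison counts equalled the main count, 40 lay within 1.5 times of it and 12 did not, and no result changed direction; of named genes, 83 values kept their call and 6, all with limma, lost it, as did 2 values when a library was left out. On log2(CPM + 1) with limma, 4 member pairs were called in place of 10, 2 further Hedgehog genes were higher in IL6Myc-4 in place of 4 and 1 lower in place of 2, and 0 neighbours of Gli1 and 1 of Gli3 were higher; this scale shrinks differences of low genes. With at least 5 CPM in 3 libraries, 0 of the further genes were called higher and 12 by the F-test over 5 lines, and 0 neighbours of Gli1 were higher and 1 lower, since fewer genes were tested. With no filter, 2 neighbours of Gli1 were higher. Of the 10 genes most like Gli1, 0 were shared under Spearman's rho and 5 on log2(CPM + 0.1); the cause was not tested. Leaving out each library in turn gave 6 to 11 called member pairs, 6 without IL6Myc-5 replicate 1, when Gli2 no longer passed the filter and Gli1 between IL6Myc-3 and IL6Myc-5 fell short at 0.87; 2 to 3 members called; 1 to 2 neighbours of Gli3 higher, 1 without IL6Myc-4 replicate 3; 3 to 5 further genes higher and 2 to 3 lower; 19 to 22 called over 5 lines; and folds in IL6Myc-4 over the next line of 779 to 820 for Gli1, 63.5 to 65.1 for Gli3, 8.61 to 8.82 for Ptch1 and 1.05 to 1.16 for Sufu. Leaving out any library of IL6Myc-5 took Gli2 below the filter, and any library of IL6Myc-4 took Gli3 below it. Each had passed only through the 3 libraries of that line. A replicate block gave 10 called member pairs, as without it, and changed no call of a named gene. Without the IL6Myc-4 libraries, a fit chosen after seeing the data, 4 members could be tested, since Gli3 no longer passed, and 7 member pairs were called.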
